A study of Mus musculus with 4 samples.

Results

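The transcripts described here encode the NF-kB, TNF and interleukin-1 signalling system: 43 genes listed by name and function, of which 38 had a value, read by 82 probe sets. They were taken by gene symbol, with no measured value in the rule, from 18193 measured genes. The list itself was, however, chosen with earlier results of these data known. Nfkb1, Chuk, Traf3, Ripk1 and Il1rl1 were not analysed here. The cells were murine endothelial cells derived from induced pluripotent stem cells (iPSCs, made by returning body cells to a pluripotent state), written miPSC-EC in the titles, while the cell type field reads iPSC. The control group came from 2 healthy mice and the DIO group from 2 mice with diet-induced obesity, all aged 24 weeks, with 1 array for each mouse. The labels give no strain, sex, diet or number of iPSC lines per mouse. Cells of both groups were kept in endothelial cell medium and trypsinized before RNA isolation. The labels call the samples of a group biological duplicates but do not say how lines and cultures were kept apart, so the p-values measure only the spread between these 4 samples, which may in part be technical.

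NF-kB is a family of dimeric transcription factors that rest in the cytoplasm, bound by inhibitors of the IkB family. TNF, interleukin-1 and ligands of Toll-like receptors engage receptors whose adaptors and ubiquitin ligases activate the IKK kinase complex. IKK marks IkB for destruction, and the freed dimers enter the nucleus and bind kappaB sites near their target genes. Many of those targets, IkB-alpha and A20 among them, shut the pathway down again. In endothelial cells the pathway is known for turning on leukocyte adhesion molecules and chemokines during inflammation.

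Of the 38 genes, 28 had a lower DIO mean than control mean, that is 73.7%, where 46.7% of all genes did. Both DIO arrays lay below both controls for 13 of the 38, or 34.2%, against 17.0% of all genes, and above both controls for 0, against 21.4% of all genes. The 13 were Il1a, Il1b, Il6, Il1r1, Il1rap, Tlr3, Irak1, Irak2, Ikbkg, Rel, Nfkbia, Bcl3 and Tnip1. The median log2 difference (DIO mean less control mean) was −0.16 over the 38 and 0.02 over all genes. No single gene passed: 0 of the 38 had a Benjamini-Hochberg adjusted p below 0.05 in limma, as was the case for 0% of all genes. At an unadjusted p below 0.05 there were 2, Il1a and Irak2, both lower in DIO, a share of 5.26% against 6.58% of all genes. These counts depend on the scale: with each array centred on its median, the median of all genes moved to 0.11. The 38 then split into 22 lower and 16 higher, so that 57.9% were lower, where 32.3% of all genes were. On that scale 9 of the 38 lay below both controls, where 9.89% of all genes did. Above both controls lay 4 of the 38, where 33.6% of all genes did. With 2 arrays a group, 0.333 is the smallest p of a 2-sided exact permutation test.

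The arrays themselves were not alike. The array of control 2 stood apart by epidermal markers and by most fibroblast markers. It was the highest for 21 of 22 measured epidermal markers, whose average was 7.09 in control 1, 11.63 in control 2, 8.07 in DIO 1 and 8.91 in DIO 2. The exception was Aqp3, and none of the 22 was below 8 in control 2. Of the 8 fibroblast markers, 6 were highest in control 2. The exceptions, Col1a1 and Pdgfrb, were highest in DIO 2, with both DIO arrays above both controls. The average of the 8 was 6.05 in control 1, 7.40 in control 2, 6.31 in DIO 1 and 6.65 in DIO 2. The 10 myeloid markers, of cells that are a usual source of TNF and interleukin-1beta, averaged 5.98 and 5.95 (control) against 5.99 and 6.04 (DIO); the defining markers Ptprc, between 3.84 and 4.11, and Itgam, between 3.32 and 3.85, were dim, while Csf1r and Cd68 were bright, at 11.03 to 11.66 and 10.30 to 11.09. Of the 12 endothelial markers 3 were above 8 on each array, Cdh5, Esam and Egfl7. Cdh5, the cadherin of endothelial junctions, lay between 8.37 and 9.34, Pecam1 between 6.05 and 7.34, and Tie1 and Emcn between 3.44 and 3.88. The 8 markers of simple epithelium averaged 12.22 to 12.35. The 10 pluripotency markers averaged 10.13 and 9.21 (control) against 10.70 and 9.55 (DIO), with the lowest array being control 2 for 9 of them. The 18S ribosomal RNA controls averaged 12.60 and 12.65 (control) against 12.30 and 11.96 (DIO), lower in both DIO arrays. The part of these differences in the results was not tested, and in a cell mixture a smaller share of a cell type and less RNA per cell cannot be told apart.

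**Figure D1:**
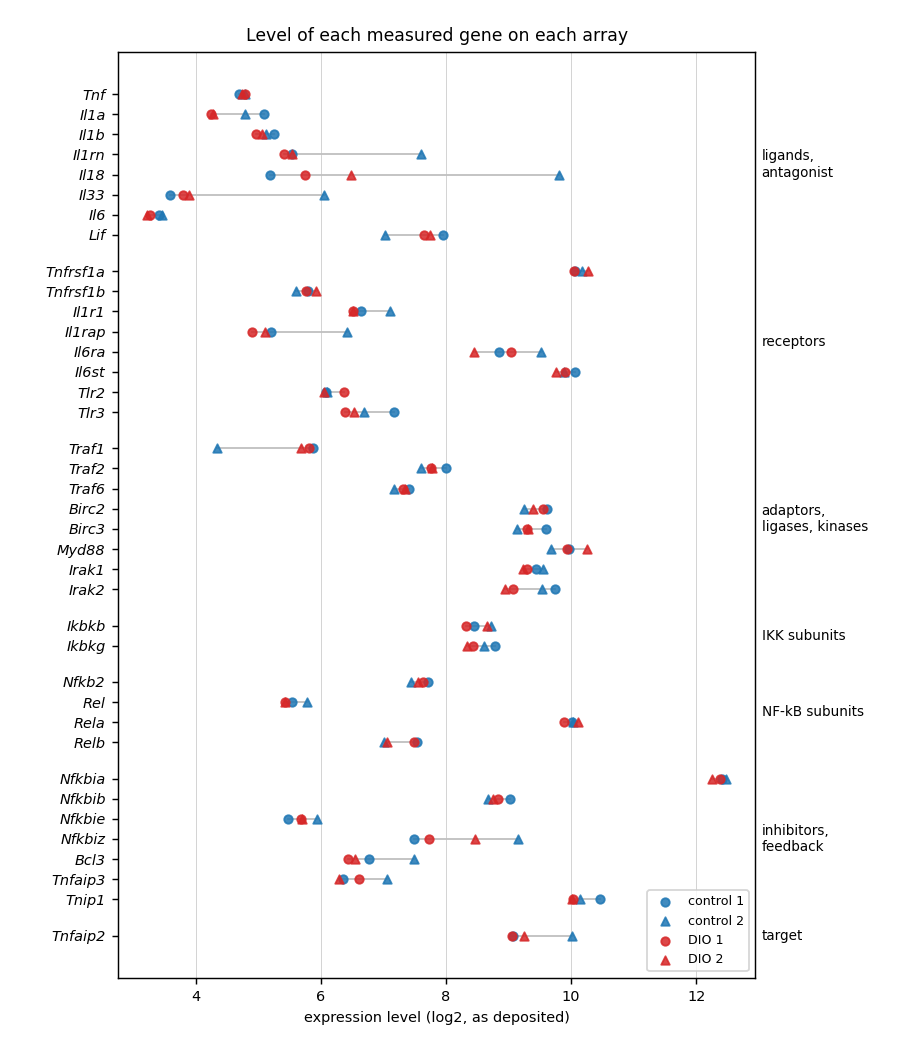
Deposited log2 level of each of the 38 measured genes (rows, grouped by role) on the 4 arrays, with controls in blue, DIO in red, mouse 1 as circles and mouse 2 as triangles, and a grey line from the lowest to the highest array. The widest lines, those of Il18, Il33, Il1rn and Nfkbiz, end in the array of control 2, while Il1a and Irak2 have both DIO points below both control points.

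The 250 bases upstream of each RefSeq transcription start (GRCm38.p6) were searched on both strands for the NF-kB consensus motif, known as the kappaB consensus. Sequences were listed for 35 of the 38 genes, with 47 start sites between them. The consensus was found in 16 of these 47 promoters, or 34.0%, and in 7.25% of all 32851 promoters. Counted by gene, it was found at 1 or more starts of 13 of the 35, or 37.1%, and 8.23% of all genes with a promoter listed. A looser pattern, GGGNNNNNCC on either strand, was in 66.0% of the members' promoters and 45.8% of all, and it includes every consensus match. The promoters printed are those of Nfkbia, Tnip1 and Tlr3, which hold the consensus and read lower on both DIO arrays than on either control, and of Il1a, Irak2 and Il18, whose values lead the results that follow. They run 5′ to 3′ on the gene's strand, and capitals mark each base within a kappaB consensus match.
Nfkbia (chr12:55492648-55492897, minus strand): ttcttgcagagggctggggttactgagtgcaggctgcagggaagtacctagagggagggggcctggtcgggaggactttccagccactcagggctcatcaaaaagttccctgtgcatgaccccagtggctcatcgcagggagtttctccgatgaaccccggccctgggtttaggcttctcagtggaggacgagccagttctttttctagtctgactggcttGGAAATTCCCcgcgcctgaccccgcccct
Tnip1 (chr11:54962941-54963190, minus strand): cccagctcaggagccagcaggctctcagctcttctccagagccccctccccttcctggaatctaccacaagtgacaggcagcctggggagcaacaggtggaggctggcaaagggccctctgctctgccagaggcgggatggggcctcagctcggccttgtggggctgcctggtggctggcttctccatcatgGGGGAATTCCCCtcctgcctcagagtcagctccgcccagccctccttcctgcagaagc
Tlr3 (chr8:45410381-45410630, minus strand): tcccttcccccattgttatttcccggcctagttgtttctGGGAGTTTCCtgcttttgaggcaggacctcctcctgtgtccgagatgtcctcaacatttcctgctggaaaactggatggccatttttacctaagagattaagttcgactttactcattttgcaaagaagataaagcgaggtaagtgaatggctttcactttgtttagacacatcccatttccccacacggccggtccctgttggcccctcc
Il1a (chr2:129309973-129310222, minus strand): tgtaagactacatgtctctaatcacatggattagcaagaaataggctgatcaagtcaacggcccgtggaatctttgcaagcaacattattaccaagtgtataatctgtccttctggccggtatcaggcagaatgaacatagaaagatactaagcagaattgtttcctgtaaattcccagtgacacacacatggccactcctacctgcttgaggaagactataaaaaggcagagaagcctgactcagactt
Irak2 (chr6:113638217-113638466, plus strand): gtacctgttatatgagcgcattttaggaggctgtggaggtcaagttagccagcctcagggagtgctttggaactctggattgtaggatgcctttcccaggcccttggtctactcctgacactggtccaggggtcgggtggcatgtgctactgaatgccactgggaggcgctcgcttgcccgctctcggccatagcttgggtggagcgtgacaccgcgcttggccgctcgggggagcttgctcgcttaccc
Il18 (chr9:50554450-50554699, plus strand): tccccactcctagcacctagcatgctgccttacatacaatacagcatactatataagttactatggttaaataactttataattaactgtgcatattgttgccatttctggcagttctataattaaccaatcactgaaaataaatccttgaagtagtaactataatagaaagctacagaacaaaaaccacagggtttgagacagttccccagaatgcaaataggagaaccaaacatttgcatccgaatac

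Nfkbia had 1 match, Tnip1 had 3 that overlap one another, Tlr3 had 1, and none was found for Il1a, Irak2 or Il18 in this window. Among the other members, matches were found for Nfkb2, Rel, Nfkbie, Tnfaip3, Tnfaip2, Tlr2, Il6, Lif, Il1r1 and Irak1. Of the 13 genes with both DIO arrays below both controls, those with a match were Nfkbia, Tnip1, Tlr3, Rel, Il6, Irak1 and, at 1 of its 2 starts, Il1r1.

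Values in this and the following paragraphs are given for mouse 1 and then mouse 2 of each group. Among the ligands, Il1a, Il1b and Il6 had both DIO arrays below both controls. Il1a, which encodes interleukin-1alpha, an alarm cytokine released by damaged cells, read 5.09 and 4.79 (control) against 4.24 and 4.27 (DIO). The groups were separated by 0.53 log2 units, and the difference was −0.68 ± 0.16 (SE, 2 arrays a group; limma, unadjusted p = 0.0111, adjusted p = 0.728). It was −0.83 against control 1 and −0.54 against control 2. Il1b, the secreted cytokine interleukin-1beta, read 5.26 and 5.13 (control) against 4.96 and 5.06 (DIO), a difference of −0.18 ± 0.13. Il6, a cytokine that NF-kB induces, read 3.41 and 3.46 (control) against 3.26 and 3.23 (DIO), a difference of −0.19 ± 0.12. Tnf overlapped between the groups, reading 4.70 and 4.79 (control) against 4.78 and 4.74 (DIO). All of these levels were low for the platform, where the median gene lay at 7.09, and without detection calls their distance from background is unknown. Lif, which keeps mouse stem cells undifferentiated, read 7.96 and 7.02 (control) against 7.65 and 7.75 (DIO), both DIO arrays lying between the controls.

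For 3 other genes of the interleukin-1 family, the array of control 2 lay far above the remaining arrays. Il18, a cytokine stored as a precursor in epithelia and cut by caspase-1, was at 5.18 in control 1 and 9.81 in control 2, and at 5.75 and 6.48 in DIO. Both DIO arrays thus lay above control 1 and far below control 2, and the difference of −1.38 had an SE of 1.63 and a 95% interval from −5.84 to 3.08. Il33, a nuclear alarm cytokine of barrier and endothelial cells, read 3.60 and 6.05 (control) against 3.80 and 3.89 (DIO) (difference −0.98 ± 0.86). Il1rn, the receptor antagonist that blocks interleukin-1, read 5.54 and 7.60 (control) against 5.40 and 5.55 (DIO) (difference −1.09 ± 0.73). The other probe sets of Il1rn gave the same picture, at 4.57 and 6.14 in the controls against 4.89 and 4.86 in DIO for the second, and at 3.82 and 4.65 against 3.96 and 4.09 for the dimmest. Without control 2, Il18 was at 0.93, Il33 at 0.25 and Il1rn at −0.06.

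**Figure D2:**
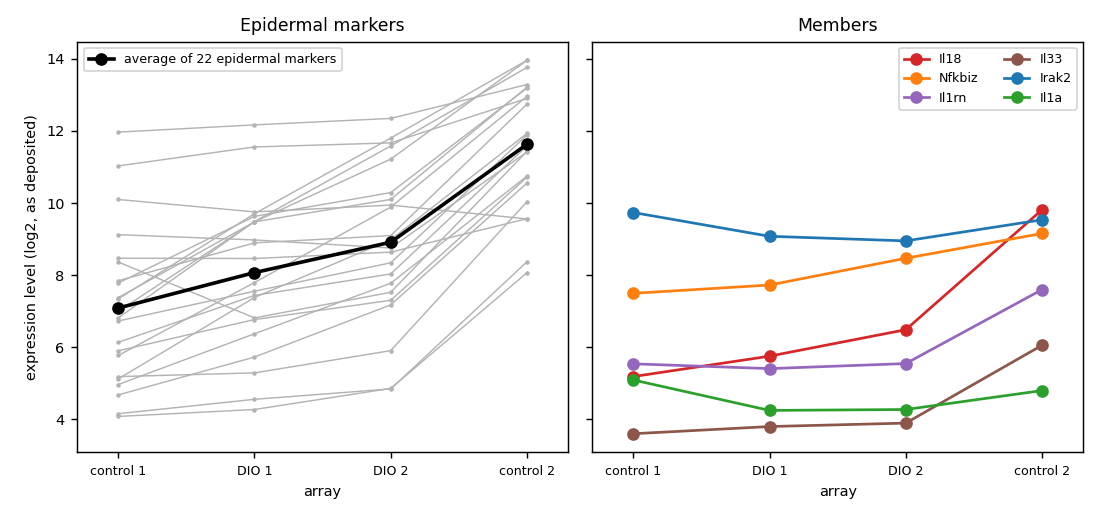
Deposited log2 level on each array, ordered from the lowest to the highest epidermal average, of 22 epidermal markers (left, grey, with their average in black) and of 6 members (right). Il18, Il33 and Nfkbiz climb in the same order as the epidermal average from 7.09 in control 1 to 11.63 in control 2, while Il1a and Irak2 are lowest in the DIO arrays.

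Some of these genes had the array order of the epidermal average, which is also that of the fibroblast average. In Il18, Il33, Nfkbiz and Nfkbie the 4 arrays had the same order as the epidermal average, control 1, DIO 1, DIO 2 and control 2 from low to high, which is 4 of 38 members or 10.5%, against 4.47% of all genes and 18 of the 22 epidermal markers. These are orders of the brightest probe sets: both other probe sets of Nfkbiz had DIO 1 below control 1, and the other one of Nfkbie had both DIO arrays above both controls. This order was looked for after the values were seen. The reverse order was found for Traf1, Birc2, Nfkb2, Relb and Nfkbib, 5 of 38, where 10.3% of all genes had it. Whether the epidermal or fibroblast transcripts have a part in these levels was not tested.

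In the brightest probe set of each chain of the interleukin-1 receptor, both DIO arrays were below both controls, while 5 of the 7 probe sets of these chains overlapped between the groups. Il1r1, the signalling receptor, read 6.64 and 7.10 (control) against 6.52 and 6.52 (DIO), a difference of −0.35 ± 0.20 that was −0.12 without control 2. Its second probe set overlapped. Il1rap, the accessory chain that it needs to signal, read 5.21 and 6.42 (control) against 4.90 and 5.11 (DIO), a difference of −0.81 ± 0.44. Most of the size of the Il1rap value came from control 2, since the DIO mean was 0.21 below control 1 and 1.42 below control 2. Its 4 other probe sets had overlapping groups, with differences from −0.08 to 0.03. Neither gene passed (limma, adjusted p = 0.761 and 0.752).

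Of the Toll-like receptors, Tlr3, which senses double-stranded RNA in endosomes, read 7.18 and 6.69 (control) against 6.38 and 6.53 (DIO), a difference of −0.48 ± 0.21 (limma, adjusted p = 0.730). Its dimmer probe set, reading 3.97 and 4.23 (control) against 3.82 and 3.82 (DIO), was also below both controls. Tlr2, a sensor of bacterial lipoproteins, differed by 0.12 ± 0.16, and its groups overlapped. The TNF receptors did so too: Tnfrsf1a, the widely expressed receptor that carries most TNF signals, read 10.06 and 10.17 (control) against 10.04 and 10.27 (DIO), and Tnfrsf1b differed by 0.15 ± 0.15. The 95% interval of the Tnfrsf1a difference ran from −0.36 to 0.45. Il6st, the shared signal chain of interleukin-6 type cytokines, differed by −0.14 ± 0.14. Il6ra, which binds interleukin-6, read 8.84 and 9.52 (control) against 9.05 and 8.45 (DIO).

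Downstream of the interleukin-1 and Toll-like receptors, both IRAK kinases had lower values in DIO, and the adaptor Myd88 did not. Irak2, which sustains NF-kB signalling after these receptors are engaged, read 9.74 and 9.53 (control) against 9.08 and 8.95 (DIO). The groups were separated by 0.46, and the difference of −0.62 ± 0.15 corresponds to a 1.54-fold lower mean (limma, unadjusted p = 0.0118, adjusted p = 0.728, rank 197 of 18193 genes). It was −0.72 against control 1 and −0.52 against control 2. Irak1, a kinase of the same family, read 9.44 and 9.54 (control) against 9.30 and 9.24 (DIO), a difference of −0.22 ± 0.13. A second probe set of Irak1 showed 9.05 and 9.23 against 8.86 and 8.92, another overlapped between the groups, and the dimmest, at 7.21 and 7.38 against 7.47 and 7.40, had the opposite sign. Myd88, the adaptor that brings these kinases to the receptors, had a higher DIO mean, reading 9.96 and 9.67 (control) against 9.94 and 10.25 (DIO), but its groups overlapped (0.28 ± 0.19).

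The TNF receptor-associated factors and the cellular inhibitors of apoptosis pass signals from receptors to kinases. The groups overlapped in the brightest probe set of each measured gene. Traf2 differed by −0.03 ± 0.18, Traf6 by 0.04 ± 0.14, Birc2 by 0.03 ± 0.19 and Birc3 by −0.07 ± 0.20. Of the 4 other probe sets of Traf6, 1 had both DIO arrays below both controls, reading 6.63 and 6.74 (control) against 6.25 and 6.41 (DIO), and 3 overlapped. The widest of the 95% intervals of these 4 genes, that of Birc3, ran from −0.63 to 0.48. Traf1, itself induced by NF-kB, was at 5.87 in control 1 and 4.35 in control 2, and at 5.81 and 5.68 in DIO. Control 2 was thus low while the remaining 3 arrays were alike, and the difference of 0.64 ± 0.54 became −0.12 without control 2. Its second probe set was also lowest in control 2, at 4.62 beside 5.48 in control 1 and 5.45 and 4.89 in DIO.

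Of the IKK complex, Ikbkg, the regulatory subunit NEMO, read 8.78 and 8.61 (control) against 8.44 and 8.33 (DIO), a difference of −0.31 ± 0.14 (limma, adjusted p = 0.730). Of its 6 probe sets 5 were lower on average and 3 separated the groups in that direction, but one, reading 6.49 and 6.27 (control) against 6.84 and 6.70 (DIO), had both above. Ikbkb, the catalytic subunit that phosphorylates IkB, differed by −0.10 ± 0.19 with overlapping groups.

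For 3 of the 4 measured NF-kB subunits the groups overlapped in the brightest probe set. Rela, the p65 subunit that activates transcription, read 10.01 and 10.03 (control) against 9.89 and 10.10 (DIO), a difference of −0.03 ± 0.14. Nfkb2, which encodes the p100 precursor of p52, differed by 0.01 ± 0.15, while its other probe set had both DIO arrays above both controls, reading 7.14 and 7.21 (control) against 7.41 and 7.49 (DIO). Relb, its partner in the non-canonical branch, read 7.54 and 7.02 (control) against 7.49 and 7.06 (DIO), so that mouse 1 was higher than mouse 2 in both groups. Rel, the c-Rel subunit known from lymphocytes, was the exception, reading 5.54 and 5.78 (control) against 5.44 and 5.44 (DIO), a difference of −0.23 ± 0.14. For Rela and the brightest probe set of Nfkb2 the 95% intervals lay within −0.41 and 0.43. Transcript levels say nothing of where these proteins were in the cell.

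The 7 inhibitors and feedback regulators all had a lower DIO mean on the deposited scale, 5 of them also with arrays centred on their medians (Nfkbib and Nfkbie turned), and none passed. Without control 2, 4 of the 7 were lower, as Nfkbie (0.22), Nfkbiz (0.60) and Tnfaip3 (0.09) turned. Bcl3, a nuclear IkB protein that works with p50 and p52 dimers, read 6.76 and 7.48 (control) against 6.44 and 6.54 (DIO), a difference of −0.63 ± 0.28 (limma, adjusted p = 0.730). Without control 2 it was −0.27. Tnip1, a partner of A20 that restrains NF-kB, read 10.45 and 10.14 (control) against 10.03 and 10.01 (DIO), a difference of −0.28 ± 0.16. Nfkbia, IkB-alpha and the classic feedback target, read 12.42 and 12.48 (control) against 12.39 and 12.26 (DIO). Its difference of −0.12 ± 0.13 was no larger than its error, and the groups were separated by only 0.03. Of its 4 other probe sets 1 was higher in DIO. Only that reading 11.67 and 11.58 (control) against 11.53 and 11.14 (DIO) was also below both controls, and the others overlapped.

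For the remaining inhibitors the groups overlapped. Nfkbib differed by −0.06 ± 0.17 and Nfkbie by −0.01 ± 0.20, and these became 0.04 and 0.08 when arrays were centred. Tnfaip3, which encodes the deubiquitinase A20, read 6.36 and 7.06 (control) against 6.61 and 6.29 (DIO). Nfkbiz, a nuclear IkB protein needed for Il6 induction and prominent in epidermis, read 7.49 and 9.15 (control) against 7.72 and 8.47 (DIO). Both its other probe sets were highest in control 2 as well, at 8.47 and 7.61, beside 7.35 and 5.93 in control 1. Tnfaip2, a TNF-induced gene of endothelial and epithelial cells, was likewise highest in control 2, at 10.01, beside 9.07 in control 1 and 9.05 and 9.25 in DIO.

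**Figure D3:**
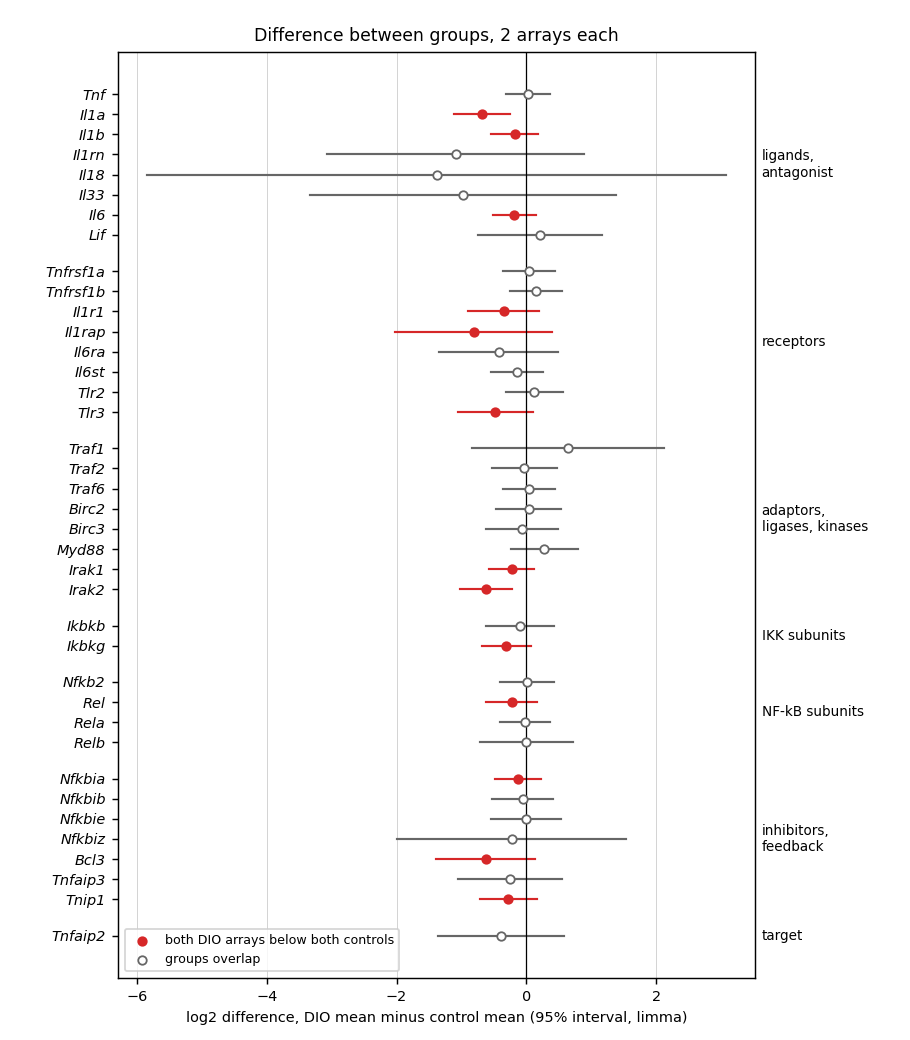
Log2 difference, DIO mean minus control mean, of each of the 38 genes with its 95% interval from limma (2 arrays a group), grouped by role. Red filled points mark the 13 genes with both DIO arrays below both controls, and only the intervals of Il1a and Irak2 do not reach 0.

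Set against each control on its own, with the same DIO mean in both comparisons, 17 members were lower than either control, 3 (Myd88, Tlr2 and Tnfrsf1b) were higher than either, and for 18 the sign depended on the control. Il1a, Irak2, Tlr3, Bcl3, Ikbkg and Il1rap lay at least 0.2 below each control. Against control 1 alone 26 of the 38 were lower in DIO, or 68.4%, where 54.9% of all genes were, and the median was −0.12. Against control 2 alone 26 were lower as well, where 38.2% of all genes were, with a median of −0.18. Without control 1, 5 members passed, Il33 (−2.21, adjusted p = 0.0233), Il1rn (−2.12, 0.0241), Il18 (−3.69, 0.0279), Traf1 (1.40, 0.0360) and Il1rap (−1.42, 0.0432), all limma adjusted p-values, where 2.65% of all genes passed. In that fit the control is 1 array, assumed to vary like the DIO arrays, so these are differences between control 2 and DIO, and without any other array 0 members passed.

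**Figure D4:**
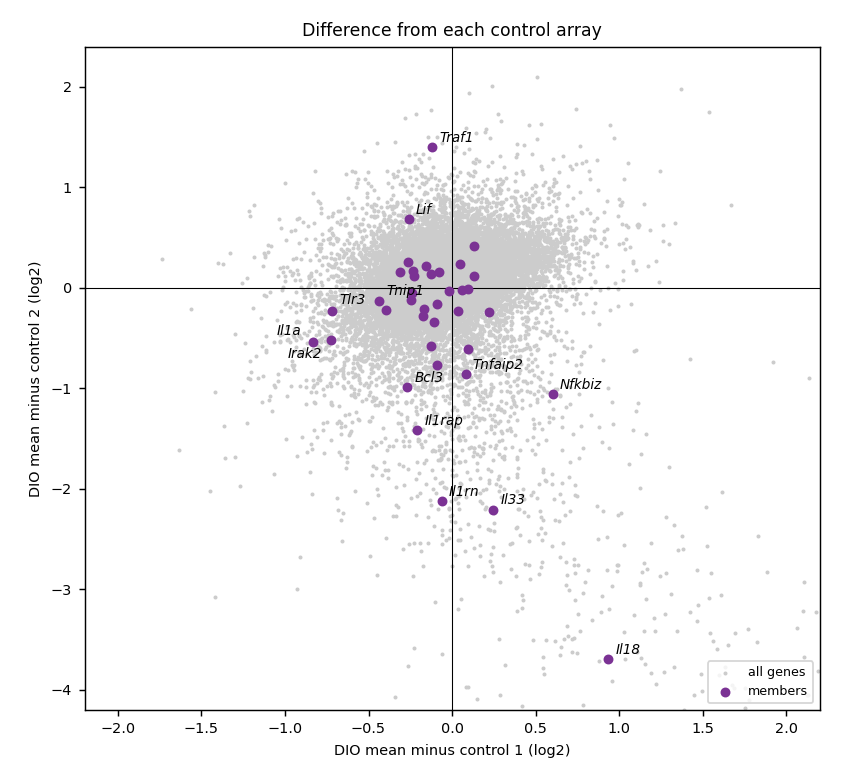
DIO mean minus control 1 (horizontal) against DIO mean minus control 2 (vertical), in log2 units, for all genes (grey; 58 beyond the axes are not drawn) and the members (purple); both axes share the DIO mean. Il18 lies at 0.93 and −3.69, while Il1a and Irak2 lie below 0 on both axes.

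Several probe sets read 21 of the 38 genes, and for 13 of the 21 these differed in sign. The 8 with 1 sign were Il1rn, Il1r1, Tlr3, Birc3 and Nfkbiz, all lower in DIO, and Lif, Traf1 and Nfkb2, all higher. Of the 82 probe sets 54 had a lower DIO mean, where 48.3% of all 34945 probe sets with 1 symbol did. Both DIO arrays lay below both controls for 22 of the 82, against 18.7% of all, and above for 5 of the 82, against 21.4% of all. Probe sets of the same gene, such as the 6 of Ikbkg, are counted apart here. Il1a, Irak2, Bcl3 and Tnip1 had 1 probe set each, so their values have no second reading on the array. Averaging the probe sets brought Il1rap from −0.81 to −0.20, Il1rn from −1.09 to −0.59 and Ikbkg from −0.31 to −0.17.

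**Figure D5:**
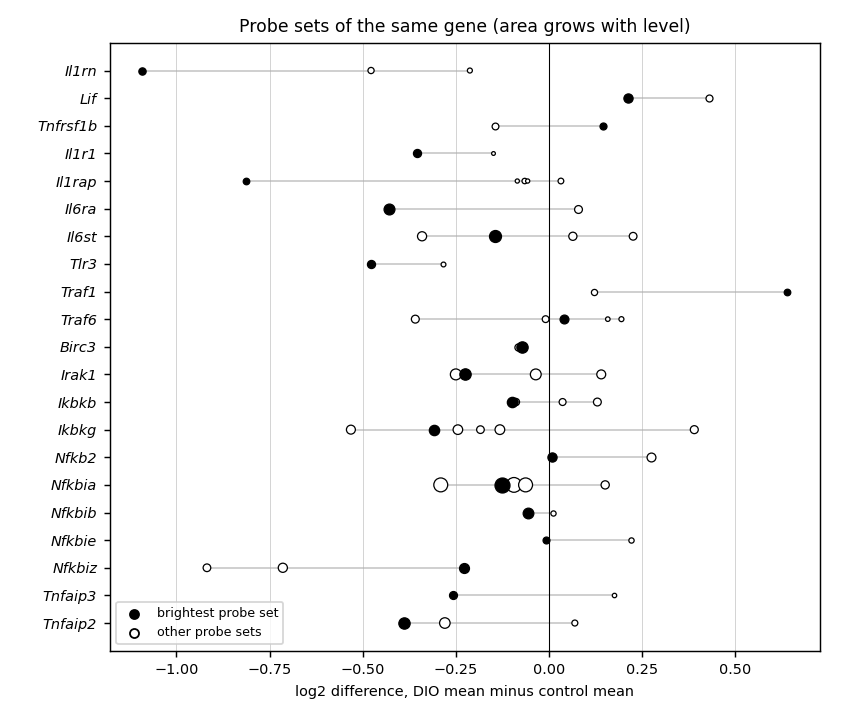
Log2 difference, DIO mean minus control mean, of every probe set of the 21 genes read by more than 1, with the brightest in black and the others open, and point area growing with the level. The probe sets of Il1rn, Il1r1, Tlr3, Birc3 and Nfkbiz stay left of 0, and those of 13 genes fall on both sides.

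Further genes of the pathway lay on both sides of the controls. Of 60 measured genes of other receptors, adaptors, kinases and inflammasome proteins, 31 were lower on average in DIO and 29 higher, and the median was −0.07. Both DIO arrays lay below both controls for 16, or 26.7%, against 17.0% of all genes, and above for 8, or 13.3%, against 21.4%. None passed in limma, and 3 of the 60 had an unadjusted p below 0.05, all lower in DIO, where 6.58% of all genes had one. Cflar, the inhibitor of caspase-8 that protects TNF-exposed cells, read 7.46 and 7.92 (control) against 7.05 and 6.65 (DIO) (−0.84 ± 0.24). Tab2, which links ubiquitin chains to the kinase TAK1, was at 10.82 and 11.08 against 10.52 and 10.45 (−0.46 ± 0.15). Stat3, the transcription factor of interleukin-6 signalling, was at 10.25 and 10.53 against 9.89 and 9.96 (−0.47 ± 0.16), and Tollip, a brake on interleukin-1 receptor signalling, differed by −0.34 ± 0.13. Casp1, which cuts the interleukin-1beta and interleukin-18 precursors, read 3.53 and 6.75 (control) against 3.84 and 4.15 (DIO), high in control 2 as Il18 was.

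Of 38 measured genes listed here as targets of NF-kB, 21 were lower on average in DIO and 17 higher, and the median was −0.06. Of the 38, 7 lay below and 7 above both controls, or 18.4% each way, against 17.0% and 21.4% of all genes. None passed, and 1 of the 38 had an unadjusted p below 0.05 in limma. Csf1, the growth factor of macrophages, had the smallest p, reading 8.88 and 8.42 (control) against 9.73 and 9.63 (DIO) (1.03 ± 0.20; limma, adjusted p = 0.728). Icam1, an adhesion molecule for leukocytes that NF-kB induces, was at 7.70 and 7.75 against 8.40 and 7.98 (0.47 ± 0.19). Csf2 differed by 0.32 ± 0.13 at levels between 3.49 and 3.90, and Zfp36, which degrades cytokine mRNAs, by −0.36 ± 0.15. Of these targets with the smallest p, Csf1, Icam1 and Csf2 had both DIO arrays above both controls, and Zfp36 had both below.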

How the data were processed

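The authors deposited 1 table of log2 values, with a row for every probe set and a column for each of the 4 Affymetrix arrays. How they corrected background, normalized and summarised probes is not stated in the labels, file headers or other sources used here. The log2 scale was taken from the values, and no depth applies to arrays: their number, 2 per group, limits the precision. Of 45101 probe sets, 64 manufacturer controls were left out. Platform annotation gave 34945 probe sets 1 gene symbol, 932 several and 9160 none, and 34741 matched RefSeq (GRCm38.p6) by gene number with 0 symbols changed. Each of 18193 genes was read from its brightest probe set by mean over the 4 arrays. The group difference was fitted in R 4.3.3 by limma 3.58.1 (lmFit and eBayes), and 2-sided p-values were adjusted by Benjamini-Hochberg over the 18193 genes, with 0.05 as threshold. The fit was run on simulated data to check that it returned the differences put in. The share of changed genes it recovered is not reported here, so how small a difference could pass is left unstated. All members are described by role, and of both further lists the 4 genes with the smallest p; Casp1 was added after its values were seen. The members and lists were chosen with earlier results of these data known. Promoter letters came from RefSeq; of several starts, the first with a match is printed.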

Additional observations from a re-analysis of the deposited data

How the results depend on the processing

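Of the 38 genes, 18 kept their sign, 16 lower in DIO and 2, Tnfrsf1b and Myd88, higher. This held in their brightest or averaged probe sets under every alternative that had a value for them. Only rescaling, averaging of probe sets and leaving out an array could turn a sign, since the other alternatives leave each difference unchanged. Of these 18, 7 (Tnfrsf1b, Il1rap, Il6ra, Il6st, Irak1, Ikbkg and Nfkbia) had another probe set of the opposite sign. On another scale of the arrays 7 others turned: with quantile normalization Nfkbib was at 0.026, Rela at 0.039, Relb at 0.10, Traf2 at 0.067 and Tnf at −0.061, and with centring on the array median Birc3 was at 0.019, Nfkbib at 0.037, Nfkbie at 0.084, Rela at 0.067, Relb at 0.089 and Traf2 at 0.059. With probe sets averaged Nfkbie was at 0.11. Leaving out 1 array at a time, 20 genes turned, with ranges of −0.15 to 0.22 for Birc2, −0.31 to 0.16 for Birc3, −0.26 to 0.067 for Ikbkb, −3.69 to 0.93 for Il18, −2.21 to 0.25 for Il33, −0.26 to 0.68 for Lif, −0.12 to 0.14 for Nfkb2, −0.23 to 0.12 for Nfkbib, −0.24 to 0.22 for Nfkbie, −1.06 to 0.60 for Nfkbiz, −0.13 to 0.082 for Rela, −0.27 to 0.26 for Relb, −0.033 to 0.28 for Tlr2, −0.025 to 0.062 for Tnf, −0.86 to 0.081 for Tnfaip2, −0.61 to 0.093 for Tnfaip3, −0.074 to 0.16 for Tnfrsf1a, −0.12 to 1.40 for Traf1, −0.23 to 0.17 for Traf2 and −0.077 to 0.16 for Traf6. Members higher in DIO numbered 16 with centring and 28 of 82 as single probe sets. Members above both controls numbered 1 with quantile normalization, 4 with centring (where 33.6% of all genes were), 1 with probe sets averaged and 1 to 11 without 1 array. Those below both numbered 8 of the 28 members left without the dimmest 40% of genes. Without 1 array they numbered 17 to 23, where fewer arrays make separation easier. Apart from centring, the shares of all genes in these settings are not given here, so the counts say nothing particular to the members. Genes at an unadjusted p below 0.05 numbered 1198, 607 without the dimmest 40%, 2811 as single probe sets and 171 to 3689 without 1 array. Calls without 1 array ranged from 0 to 483 for all genes, 0 to 5 for members, 0 to 2 for other pathway genes and 0 to 4 for NF-kB targets, and every one came without control 1; the cause was not tested. With the mouse number as a replicate block in limma, 982 genes had an unadjusted p below 0.05 and 0 members passed. Each group holds both numbers, so the block leaves every difference unchanged and no sign could turn. The numbers name different animals, and over genes the correlation of control 1 less control 2 with DIO 1 less DIO 2 was 0.33. The signal over background of the dim members is unknown, which limits their differences.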
